A study of Mus musculus with 8 samples.

Results

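Mouse thyroid follicular cell organoids (TFCOs) of 2 lines, mThy14 and mThy16, were compared at late and at early passage by bulk RNA sequencing. The comparison uses 4 of the 8 libraries of the series: 1 early and 1 late library of each line, chosen by the line and passage in their titles. The other 4 libraries are thyroid and lung tissues and enter only an alternative fit. Each early library was paired with the late library of its own line, and the question was which genes drift in the same direction in both lines and which stay constant.

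All 4 libraries came from wild-type C57BL/6 mice and were untreated. Each TFCO line was started from the digested thyroid of a single mouse and was grown in basement membrane extract. The expansion medium was the same for both passages and held B27, 1.25 mM N-acetylcysteine, 10 mM nicotinamide, 1% R-spondin 3 conditioned medium, 0.5 µM of the TGF-beta receptor inhibitor A83-01, 1 µM of the adenylyl cyclase activator forskolin, 500 ng/mL EGF and 100 ng/mL FGF10. The labels give the passage as early or late, without a passage number for each library. With 1 library per line and passage, the spread in this comparison is that between 2 lines, and whether a line would give the same difference in a second culture cannot be told from it.

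Thyroid follicular cells line the follicles of the thyroid gland and make thyroid hormone. They take up iodide through the sodium iodide symporter Slc5a5, and with hydrogen peroxide from the Duox enzymes the iodide is coupled to thyroglobulin (Tg), which is stored in the lumen. Thyroid-stimulating hormone acts on its receptor Tshr through cyclic AMP, which drives both hormone synthesis and growth, and the transcription factors Pax8, Nkx2-1, Foxe1 and Hhex together define the lineage.

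Of the markers fixed for this cell type, Pax8, Nkx2-1, Foxe1, Hhex, Tg, Tshr and Epcam were present in all 4 libraries, with 878 normalized counts of Foxe1 in late mThy16 as the lowest value. Values are normalized counts, which are reads per gene divided by a size factor of the library and are not scaled to gene length. Reads were inferred from the steps between values, and on that basis the 4 libraries held between 9755081 reads on genes (early mThy14) and 13128625 (late mThy14). The share of normalized counts on mitochondrially encoded genes was 0.727% in early mThy14 and between 0.312% and 0.34% in the other 3 libraries. The early and late libraries of a line were not the same library deposited again, since a chi-square comparison of their inferred reads gave 83.9 per gene for mThy14 and 9.52 for mThy16, where sampling noise alone gives about 1.

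Across genes, the differences of the lines were close to unrelated. Differences are late minus early values of log2(normalized counts + 1). Genes were tested where 2 or more of the 4 libraries reached 10 normalized counts. Of these 13453 genes, 0 (0.0%) passed an adjusted p of 0.05 for late against early passage in limma with the line as a block, and the smallest adjusted p was 0.792. At an unadjusted p under 0.05 the same fit held 815 genes, which is 6.06% of those tested, 331 of them higher and 484 lower at late passage. Without the filter on low values limma called 93 of 15892 genes, 23 of them higher at late passage, and all 93 also pass the filter. The cause was not tested. The late minus early log2 differences of the lines had a Pearson r of 0.013 and a Spearman rho of 0.040 across the 13453 genes, which are not independent replicates, and 52.6% of genes moved in the same direction in both lines. The line accounted for 62.3% of the sum of squares of the log2 values about each gene's mean. The mean passage difference of the lines accounted for 19.1%, and the departure of the lines from that mean for 18.6%. A change in a single line adds equally to both of these parts, so the 19.1% does not measure drift shared by the lines.

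The lines also differed in how far they moved. The SD of the late minus early log2 difference across genes was 1.07 in mThy14 and 0.73 in mThy16. In mThy14, 1050 genes (7.8%) were at least 2-fold higher and 1958 (14.6%) at least 2-fold lower at late passage. In mThy16, 725 (5.39%) were at least 2-fold higher and 761 (5.66%) lower. Weakly expressed genes made up most of the count in mThy16: among the 2978 genes with a mean of 1000 or more over the 4 libraries, 124 were at least 2-fold higher and 106 lower in mThy14, against 1 higher (Malat1) and 0 lower in mThy16. The SD at that level was 0.641 in mThy14 and 0.187 in mThy16, while the median SE from counting alone was 0.051 and 0.048.

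**Figure D1:**
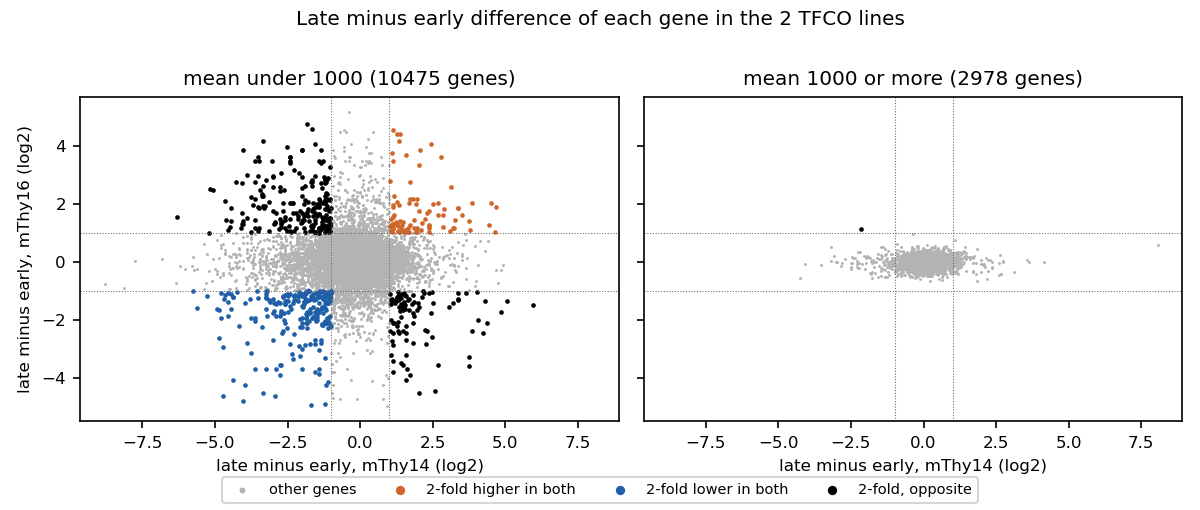
Each point is 1 of 13453 genes, with the late minus early difference of log2(normalized counts + 1) in mThy14 on the x axis and in mThy16 on the y axis, for genes with a mean under 1000 (left) and of 1000 or more (right) over the 4 libraries. Orange and blue points were at least 2-fold higher or lower in both lines, black points changed at least 2-fold in opposite directions, and dotted lines mark 2-fold. On the right the cloud is wide along x (SD 0.641) and narrow along y (SD 0.187), and no gene lies in an orange or blue corner.

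Genes that were at least 2-fold higher at late passage in both lines numbered 90, which is 0.669% of those tested, and genes at least 2-fold lower in both numbered 236 (1.75%). A further 319 genes (2.37%) changed at least 2-fold in opposite directions, 98 of them higher and 221 lower in late mThy14. Most of the shared changes lay at low levels. Of the 90 and 236 genes, 67 and 172 had a mean under 30 normalized counts, where the median SE from counting alone was 0.60 in mThy14 and 0.58 in mThy16 on the log2 scale, and 0 of either had a mean of 1000 or more. Quantile normalization gave 156 higher and 155 lower in place of 90 and 236, and a pseudocount of 5 gave 43 and 147. With at least 50 normalized counts in both libraries of the higher passage, 8 genes remained among the higher and 32 among the lower.

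The genes that led the shared increase and decrease were picked for a change in the same direction in both lines. Their shared direction is fixed by that choice, which also makes separation of the late from the early libraries more likely. The homeobox factor Hoxb7 had the largest fitted change of the 15 genes that led the shared increase. Its value was 61.8 and 609.9 normalized counts in early and late mThy14 and 64.4 and 178 in early and late mThy16. Both late libraries lay above both early ones, and limma gave a late minus early log2 difference of 2.37 ± 0.48 (SE, 2 lines, adjusted p = 0.792). Abcc9, a regulatory subunit of ATP-sensitive potassium channels, ranked first by the smaller of its differences in the lines. It stood at 56.2 (early) and 182 (late) normalized counts in mThy14 and 12.9 and 55.9 in mThy16, so the late library of mThy16 stood just under the early library of mThy14 and the groups overlapped. The log2 difference was 1.86 ± 0.59 (SE, 2 lines, adjusted p = 0.792).

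Hltf, a helicase that acts in the tolerance of DNA damage, was the most abundant of the 15 by normalized counts. Its levels were 124 normalized counts at early and 365 at late passage in mThy14, and 370.4 and 711 in mThy16. It was higher at late passage within each line, but the early library of mThy16 exceeded the late library of mThy14. The fitted log2 difference was 1.25 ± 0.33 (SE, 2 lines, adjusted p = 0.792). E2f6, a member of the E2F family that represses transcription, changed by nearly the same amount in both lines, with 70.3 and 168 normalized counts in early and late mThy14 and 60.4 and 149.8 in early and late mThy16. Both late libraries exceeded both early ones and the log2 difference was 1.27 ± 0.47 (SE, 2 lines, adjusted p = 0.792). Olfm4, a secreted glycoprotein known from intestinal crypts, was 12.6 (early) and 164 (late) normalized counts in mThy14 and 85.2 and 168 in mThy16, and its change in mThy14 was much the larger.

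The other 10 genes of this set stayed at or below 306 normalized counts in all 4 libraries. They were Hrnr, an S100 fused-type protein of the cornified epidermis, the zinc finger proteins Zbtb46 and Zik1, the BTB domain protein Rhobtb1, the mitotic kinesin Kif14, the autophagy protease Atg4c, the junctophilin Jph3, and Lysmd4, Lgi3 and Eva1a. Their log2 differences ran from 0.94 (Zik1) to 3.08 (Rhobtb1) in mThy14 and from 0.97 (Kif14) to 1.36 (Hrnr) in mThy16. Kif14 was 15.5 normalized counts at early and 89.5 at late passage in mThy14, and 32.7 and 64.8 in mThy16, opposite in mThy14 to most other mitotic genes described further on. For the 15 genes the adjusted p ran from 0.792 to 0.863 (Jph3).

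Among genes that led the shared decrease, Adcy3, an adenylyl cyclase that makes cyclic AMP, was 211 and 63.5 normalized counts in early and late mThy14 and 109 and 34.7 in early and late mThy16. It was lower at late passage by a similar amount in both lines, and the late libraries lay below the early ones. The log2 difference in limma was -1.67 ± 0.50 (SE, 2 lines, adjusted p = 0.792). Grem1, a secreted antagonist of bone morphogenetic proteins, was 245 (early) and 62.5 (late) normalized counts in mThy14 and 67.3 and 22.4 in mThy16. Both late libraries were below both early ones, with a log2 difference of -1.75 ± 0.54 (SE, 2 lines, adjusted p = 0.792). Crygs, a crystallin, was the most abundant of the 15 by normalized counts, with 583 normalized counts at early and 153 at late passage in mThy14, and 141 and 52.5 in mThy16, and here the late library of mThy14 exceeded the early library of mThy16. Its log2 difference was -1.66 ± 0.41 (SE, 2 lines, adjusted p = 0.792).

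Arfgef3, a protein of the Arf exchange factor family, was 209 and 57.2 normalized counts in early and late mThy14 and 128 and 35.8 in early and late mThy16, a difference of -1.83 ± 0.50 (SE, 2 lines, adjusted p = 0.792). Mst1r, the receptor tyrosine kinase RON, was 198 (early) and 27.1 (late) normalized counts in mThy14 and 51.5 and 19 in mThy16. The difference was larger in mThy14 and the groups did not overlap. Tnfsf12, the TNF family ligand TWEAK, was 99.8 normalized counts at early and 11.4 at late passage in mThy14, and 114 and 45.8 in mThy16, again with both late libraries below both early ones.

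The other 9 genes of the set were Entpd8, an enzyme that degrades extracellular nucleotides, the exchange factors Def6 and Fgd2, the transcription factors Pou3f1 and Mafa, the cadherins Cdh17 and Pcdh7, the palmitoyltransferase Zdhhc2, and the snoRNA host gene Snhg17. Their log2 differences ran from -4.56 (Pcdh7) to -1.45 (Cdh17) in mThy14 and from -1.95 (Def6) to -1.29 (Fgd2) in mThy16. Entpd8, which ranked first, rested on 40 and 14 inferred reads in early and late mThy14 and 55 and 12 in mThy16. The adjusted p of the 15 genes ran from 0.792 to 0.807 (Snhg17).

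**Figure D2:**
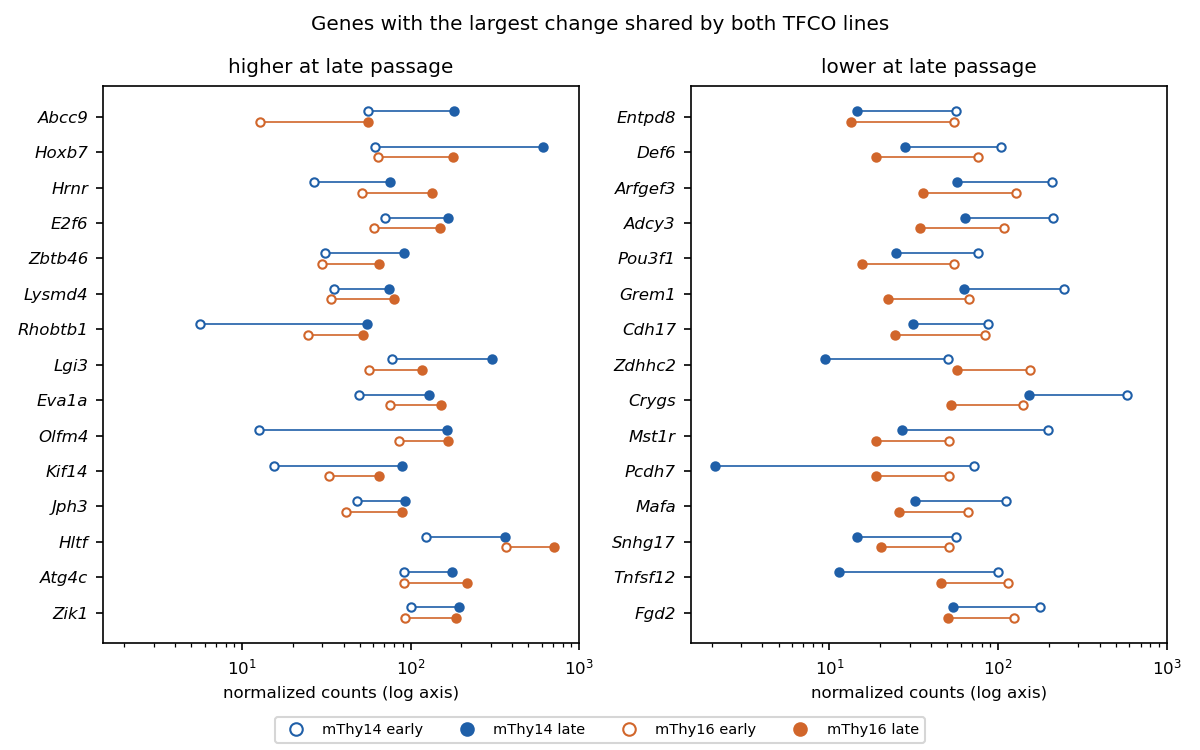
Normalized counts on a log axis of the 15 genes with the largest shared increase (left) and the 15 with the largest shared decrease (right), with open circles for early and filled circles for late passage, mThy14 in blue and mThy16 in orange. Genes are ranked on the smaller of the differences in the lines where both have the same sign. By that choice the filled circle lies on the same side of the open circle in both lines of every row. Entpd8, for example, was 56.2 at early and 14.6 at late passage in mThy14.

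Genes were called constant within 0.25 log2 and drifting beyond 2-fold, so the counts rest on unlike thresholds and do not rank constancy against drift. A total of 2347 genes (17.4%) stayed within 0.25 log2 of the early value in both lines. Within that limit lay 29.2% of genes in mThy14 and 51.0% in mThy16. The share that was constant in both lines increased with level, from 2.71% of the 2400 genes with a mean under 30 to 34.5% of the 2978 with a mean of 1000 or more, where counting error is smallest.

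The 10 genes with a mean of 1000 or more that moved least were 2 ribosomal proteins (Rpl23 and Rpl3), the autophagy protein Becn1, the chromatin remodeller Smarca2, the clathrin adaptor subunit Ap1s1, the mitochondrial aminotransferase Got2, the COP9 signalosome subunit Cops5, the tubulin Tubb4b, the transport protein Tmed4 and the hydrolase Abhd4. Rpl23 was 32133 and 32179.5 normalized counts in early and late mThy14 and 16959 and 17021 in early and late mThy16, and its level differed between lines but not between passages. Becn1 was 2233 (early) and 2219 (late) normalized counts in mThy14 and 1961 and 1949.5 in mThy16, close to the same level in all 4 libraries.

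Ribosomal proteins had the highest share of constant genes among the lists. Of 76 tested genes of the cytosolic ribosome, 55 (72.4%) stayed within 0.25 log2 in both lines, and 0 were at least 2-fold changed in both. Over all genes, 0.669% were at least 2-fold higher and 1.75% lower in both. The constant share was 17.4% over all genes and 34.5% over genes with a mean of 1000 or more, the closer comparison for abundant genes. The 4 of highest mean were Rplp0, Rps3, Rplp1 and Rpl23. Rplp1 had the largest difference of the list in mThy14, with 24247 normalized counts at early and 41281 at late passage in mThy14, and 19767 and 18174 in mThy16. The proteasome, which degrades ubiquitinated proteins, had 15 of 31 tested subunits constant (48.4%), and the nuclear genes of oxidative phosphorylation 22 of 52 (42.3%). Psmd2, the proteasome subunit of highest mean, was 5149.8 and 3945 normalized counts in early and late mThy14 and 5939 and 6455 in early and late mThy16. It differed by less than 0.5 log2 in each line.

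Of 17 genes in common use as references, 6 (35.3%) were constant in both lines, beside 34.5% of genes with a mean of 1000 or more. Of the 17, 0 changed 2-fold in either line. Their median difference was -0.31 in mThy14 and 0.004 in mThy16, beside medians of -0.031 and 0.0063 over all genes tested. Under quantile normalization the median of the references in mThy14 was -0.17, beside 0.024 over all genes. The elongation factor Eef1a1 was 184565 (early) and 236292 (late) normalized counts in mThy14 and 129567 and 134493 in mThy16. The glycolytic enzyme Gapdh was 18941 normalized counts at early and 11617 at late passage in mThy14, and 12554 and 12399 in mThy16, so this reference was lower in late mThy14 and level in mThy16.

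Of 10 tested transcription factors of the thyroid lineage, 2 were at least 2-fold lower in mThy14, beside 14.6% of all genes, and 0 differed 2-fold in mThy16 or in both lines. Over all genes, 5.39% were at least 2-fold higher and 5.66% lower in mThy16, and 0.669% and 1.75% in both lines. In both lines 1 (10.0%) was constant, beside 17.4% of all genes and 34.5% of those with a mean of 1000 or more. Nkx2-1 was 12088 and 11848 normalized counts in early and late mThy14 and 4422 and 3521 in early and late mThy16. Pax8 was 8273 (early) and 7559.6 (late) normalized counts in mThy14 and 4259 and 3925 in mThy16. Each was lower at late passage by at most 0.33 log2, less than the difference between the lines at either passage.

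Foxe1 and Hhex moved in opposite directions in the lines, both by less than 0.5 log2. Foxe1 was 4311 normalized counts at early and 5080.3 at late passage in mThy14, and 1157 and 878 in mThy16. Hhex was 4801 and 5823 normalized counts in early and late mThy14 and 1743 and 1311 in early and late mThy16. In mThy16, 9 of the 10 factors were lower at late passage, with a median of -0.31. In mThy14, 6 of 10 were lower, with a median of -0.053. Sox9, a factor of progenitor cells in many epithelia, was 6769 (early) and 9208 (late) normalized counts in mThy14 and 4854 and 3917 in mThy16. The 2 factors at least 2-fold lower in mThy14 were Foxa2 and Thrb, named after their values were seen. Foxa2, a forkhead factor of foregut endoderm, was 326 normalized counts at early and 124 at late passage in mThy14, and 800.1 and 771 in mThy16. The thyroid hormone receptor Thrb was 57.6 and 28.1 normalized counts in early and late mThy14 and 68.3 and 51.4 in early and late mThy16.

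Genes of hormone synthesis included 2-fold changes in either line. Of 16 tested, 4 were at least 2-fold higher and 6 lower in mThy14, 2 higher and 1 lower in mThy16, and 2 (12.5%) were constant in both. Over all genes these shares were 7.8% and 14.6%, 5.39% and 5.66%, and 17.4%. Under quantile normalization the list's median in mThy14 was -0.12 in place of -0.33. Tg was 126441 (early) and 64646 (late) normalized counts in mThy14 and 12225 and 9532 in mThy16. It was lower at late passage in both lines, with log2 differences of -0.97 and -0.36, and the late library of mThy14 still held more than either library of mThy16. The fitted log2 difference was -0.66 ± 0.23 (SE, 2 lines, adjusted p = 0.792).

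The TSH receptor was level in both lines. Tshr was 7739 normalized counts at early and 8582 at late passage in mThy14, and 1963 and 1882 in mThy16, a log2 difference of 0.044 ± 0.21 (SE, 2 lines, adjusted p = 0.993). Iyd, which recovers iodide from iodinated tyrosines, was 3806 and 8701 normalized counts in early and late mThy14 and 2865 and 2919.8 in early and late mThy16, higher in mThy14 and level in mThy16.

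Among the 16 tested members, 2-fold changes shared by both lines occurred in Duoxa2 and Dio1, both below 50 normalized counts in mThy16 and named here after their values were seen. Over all genes, 0.669% were at least 2-fold higher and 1.75% lower in both. Duoxa2, the maturation factor of the hydrogen peroxide source Duox2, was 94.2 (early) and 308 (late) normalized counts in mThy14 and 15.8 and 39.1 in mThy16, with a log2 difference of 1.48 ± 0.55 (SE, 2 lines, adjusted p = 0.792). Dio1, a deiodinase that converts T4 to T3, was 415 normalized counts at early and 72.9 at late passage in mThy14, and 41.6 and 15.7 in mThy16, with a log2 difference of -1.92 ± 0.56 (SE, 2 lines, adjusted p = 0.792). The sodium iodide symporter Slc5a5, also named after its values were seen, was 292 and 29.1 normalized counts in early and late mThy14 and 45.6 and 24.6 in early and late mThy16. It was lower at late passage in both lines but passed 2-fold in mThy14 only, where it stood on 208 and 28 inferred reads.

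**Figure D3:**
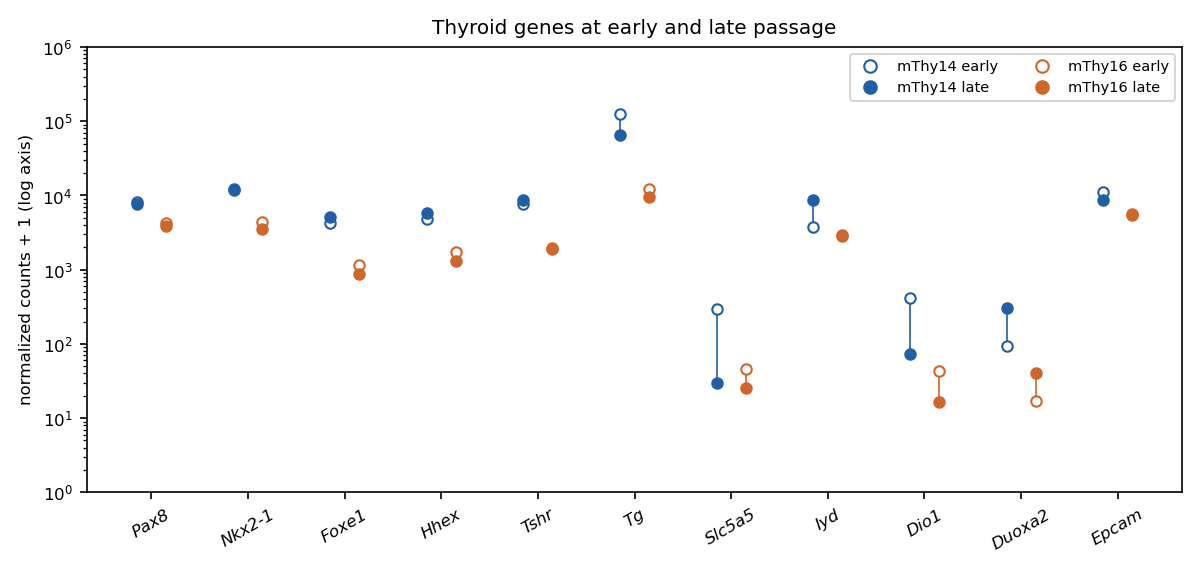
Normalized counts plus 1, on a log axis, of 11 thyroid genes in each library, with open circles for early and filled circles for late passage, mThy14 in blue and mThy16 in orange. The lineage factors Pax8, Nkx2-1, Foxe1 and Hhex and the receptor Tshr differed by at most 0.41 log2 between passages (Hhex in mThy16). The wide axis makes such differences look small, and all of these genes were lower in late mThy16. Slc5a5 (292 early, 29.1 late) and Dio1 (415 early, 72.9 late) lie far apart in mThy14.

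The largest list-wide differences were seen in a single line. Cell division genes of the G2 and M phases were lower in late than in early mThy14 and level in mThy16. Many of these genes carry CCAAT boxes near their start, which the factor NF-Y binds. Of 48 members with a promoter in the RefSeq table (GRCm38.p6, 250 bases before to 50 after the start), 38 (79.2%) held CCAAT on either strand, against 37.5% of 10483 tested genes with a promoter and 37.9% of all 27025 promoters. The 120 bases before the start are shown for the 3 members of highest mean that were at least 2-fold lower in late mThy14 and had a match there, 5′ to 3′ on the gene's strand, with CCAAT or its reverse complement ATTGG in capitals. A match is a description of the letters and not a binding site.
Top2a, chr11:99024190-99024309, minus strand: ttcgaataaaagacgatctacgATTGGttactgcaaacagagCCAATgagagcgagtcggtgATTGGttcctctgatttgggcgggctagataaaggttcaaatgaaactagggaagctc
Ncapd2, chr6:125191587-125191706, minus strand: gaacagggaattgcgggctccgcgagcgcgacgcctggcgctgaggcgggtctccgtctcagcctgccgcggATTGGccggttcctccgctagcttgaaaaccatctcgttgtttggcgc
Kif23, chr9:61946800-61946919, minus strand: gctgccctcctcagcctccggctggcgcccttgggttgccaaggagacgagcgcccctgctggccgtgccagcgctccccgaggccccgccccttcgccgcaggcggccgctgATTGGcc

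Over all genes, 14.6% were at least 2-fold lower in mThy14 and 5.66% in mThy16, and 7.8% and 5.39% higher. In both lines, 0.669% of all genes were at least 2-fold higher and 1.75% lower. These shares also stand beside the lists below. Of 55 tested G2/M genes, 48 were lower and 7 higher in late mThy14, 38 of them at least 2-fold lower. In mThy16, 22 were lower and 33 higher, with 3 at least 2-fold lower and 1 at least 2-fold higher. The median difference was -1.90 in mThy14 and 0.11 in mThy16, and 1 gene, Cdca2, was at least 2-fold lower in both lines (under 50 normalized counts in early mThy14). The 4 members of highest mean, Tubb4b, Ctcf, Tmpo and Ckap5, are proteins of microtubules, chromatin and the nuclear envelope and moved by at most 0.51 log2 in either line. Tmpo was 1314 (early) and 1135 (late) normalized counts in mThy14 and 1832 and 2582 in mThy16.

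The following members were chosen after their values were seen. Topoisomerase Top2a was 753 normalized counts at early and 138 at late passage in mThy14, and 1839 and 1991 in mThy16. The mitotic kinase Cdk1 was 235 and 12.5 normalized counts in early and late mThy14 and 366 and 427 in early and late mThy16. Its partner Ccnb1 was 214 (early) and 33.3 (late) normalized counts in mThy14 and 387 and 446 in mThy16. All 3 were lower in late mThy14 and within 0.25 log2 in mThy16. The condensin subunit Ncapd2 was 676 normalized counts at early and 192 at late passage in mThy14, and 842 and 836 in mThy16. The mitotic kinesin Kif23 was 216 and 19.8 normalized counts in early and late mThy14 and 901 and 1039.6 in early and late mThy16. The proliferation marker Mki67 was 45 (early) and 11.4 (late) normalized counts in mThy14 and 57.4 and 48.1 in mThy16, so it too was lower in late mThy14, while its change in mThy16 was -0.25 log2.

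Genes of the G1/S transition and of DNA replication followed the same pattern with smaller differences. Of 44 tested, 33 were lower in late mThy14, 18 at least 2-fold, 1 was at least 2-fold higher, and 33 were higher in late mThy16, 1 at least 2-fold. The medians were -0.69 and 0.20. The ribonucleotide reductase subunit Rrm1 was 933 normalized counts at early and 493 at late passage in mThy14, and 2105 and 2749.9 in mThy16. The replicative helicase subunit Mcm6 was 1391 and 792 normalized counts in early and late mThy14 and 1515 and 1717 in early and late mThy16. Both were lower in late mThy14 and higher in late mThy16. Pcna, the sliding clamp of DNA polymerases, was 984 (early) and 805 (late) normalized counts in mThy14 and 1291 and 1441 in mThy16. The helicase subunit Mcm7 was 1026 normalized counts at early and 636 at late passage in mThy14, and 1420.1 and 1316 in mThy16.

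Inhibitors of the cell cycle and p53 targets showed no common direction. Of 31 tested, 4 were at least 2-fold higher and 4 lower in mThy14, 0 higher and 1 lower in mThy16, and 0 were 2-fold changed in both. The shares in mThy14 lay near those of all genes (7.8% higher and 14.6% lower). The apoptosis regulator Bax was 2333 and 1991 normalized counts in early and late mThy14 and 6827 and 6978 in early and late mThy16. Ccng1, a p53 target, was 971 (early) and 1521 (late) normalized counts in mThy14 and 4718 and 5509.9 in mThy16. Ei24 was 1501 normalized counts at early and 2566 at late passage in mThy14, and 2637 and 2532 in mThy16. The antiproliferative gene Btg2 was 2510.3 and 1533 normalized counts in early and late mThy14 and 2429 and 2035 in early and late mThy16. Of 18 tested genes of inflammation and the senescence secretome, 3 were at least 2-fold higher and 3 lower in mThy14 and 0 changed 2-fold in mThy16. Over all genes, 7.8% were higher and 14.6% lower in mThy14, and 5.39% and 5.66% in mThy16. Igfbp5, a binding protein of insulin-like growth factors, was 3202 (early) and 16258 (late) normalized counts in mThy14 and 2635 and 2239 in mThy16, higher in late mThy14 alone.

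Genes of cholesterol and fatty acid synthesis formed the other list with a large difference in mThy14. Of 28 tested, 27 were lower in late mThy14, 17 at least 2-fold, with a median of -1.69. In mThy16, 11 were lower and 17 higher, 0 of them 2-fold, with a median of 0.077. Among the members of highest mean, Fasn, Srebf1 and Acly serve fatty acid synthesis or its regulation, and all 3 differed by less than 1 log2. Fasn was 14706 normalized counts at early and 7519 at late passage in mThy14, and 7259 and 5957 in mThy16.

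All 17 of the 2-fold changes lay in genes of cholesterol synthesis, uptake and its regulation, from which the next genes were chosen after their values were seen. Hmgcs1, an early enzyme of the mevalonate route, was 3749.9 and 820.2 normalized counts in early and late mThy14 and 2321 and 2946 in early and late mThy16. Insig1, a sterol-regulated brake on the pathway, was 9796 (early) and 2100.4 (late) normalized counts in mThy14 and 1323 and 1279 in mThy16. Both were at least 4-fold lower in late mThy14 and differed by at most 0.34 log2 in mThy16. The 8-letter sterol response core CACCCCAC, on either strand, was in 1 of 20 promoters of this list (5.0%), against 3.13% of tested genes, so no sequence is shown for it.

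Mitochondrially encoded genes were lower in late mThy14 for 10 of 10 tested, 7 of them at least 2-fold, and 3 of 10 were lower in mThy16, where 1 was at least 2-fold higher. The median difference was -1.20 and 0.049. The cytochrome oxidase subunit mt-Co1 was 61383 normalized counts at early and 30123 at late passage in mThy14, and 24742 and 23600.2 in mThy16. The ATP synthase subunit mt-Atp6 was 7999 and 3431 normalized counts in early and late mThy14 and 3106 and 3089 in early and late mThy16. For both, the early mThy14 library stood above the other 3, which differed less among themselves. Nuclear genes of the same complexes had medians of 0.093 and -0.015.

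**Figure D4:**
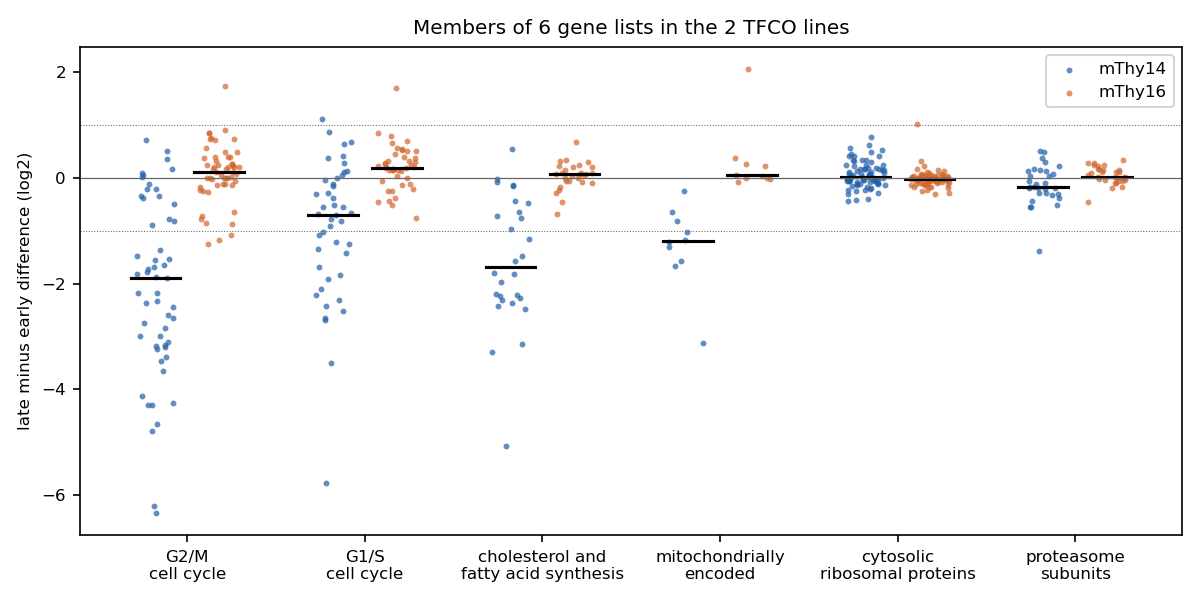
Late minus early difference of log2(normalized counts + 1) of the tested members of 6 gene lists, with mThy14 in blue, mThy16 in orange, each point 1 gene and each black bar the median, and dotted lines at 2-fold. The G2/M, G1/S, cholesterol and mitochondrially encoded genes spread below 0 in mThy14 alone (medians of -1.90, -0.69, -1.69 and -1.20), and the ribosomal and proteasome genes stay close to 0 in both lines.

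Chaperones and disulfide isomerases of the endoplasmic reticulum, which fold secreted proteins such as Tg, were lower in late mThy14 at the top of their range. Of 27 tested genes, 16 were lower in mThy14 and 7 in mThy16, with medians of -0.40 and 0.042. At least 2-fold lower were 2 in mThy14 and 0 in mThy16, beside 14.6% and 5.66% of all genes. At least 2-fold higher were 1 and 1, beside 7.8% and 5.39% of all genes. The isomerase Pdia3 was 47508 (early) and 27733 (late) normalized counts in mThy14 and 20664 and 22263 in mThy16. The chaperone Hspa5 was 41447 normalized counts at early and 21913 at late passage in mThy14, and 20507 and 23009 in mThy16. The chaperone Calr was 40471 and 20542 normalized counts in early and late mThy14 and 13757 and 13060.0 in early and late mThy16. In mThy14 these differences were close to 2-fold, and in mThy16 they were at most 0.17 log2.

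Lung-associated surfactant genes were expressed in the TFCOs and moved both ways in mThy14. Of 8 tested, 4 were at least 2-fold lower and 1 higher in mThy14 and 1 lower in mThy16. Over all genes these shares were 14.6%, 7.8% and 5.66%. The medians of the list were -1.15 and -0.20. The 1 higher member was Sftpc, a surfactant protein that marks alveolar type 2 cells, named after its values were seen. It was 7.03 (early) and 266 (late) normalized counts in mThy14 and 35.7 and 13.4 in mThy16, so it differed in opposite directions in the lines and was low in 3 of the 4 libraries. Sftpb, a surfactant protein that depends on Nkx2-1 in the lung, was 28177 normalized counts at early and 1475 at late passage in mThy14, and 3031 and 2066 in mThy16. The aspartic protease Napsa was 14180.3 and 4147 normalized counts in early and late mThy14 and 3725 and 3592 in early and late mThy16. The phosphate transporter Slc34a2 was 11119 (early) and 970.1 (late) normalized counts in mThy14 and 4151 and 3824 in mThy16. The factor Etv5 was 4649 normalized counts at early and 3111 at late passage in mThy14, and 4176 and 3451 in mThy16. These 4 genes were lower in late mThy14, while in mThy16 their differences were under 0.6 log2 in size. Abca3 and Lpcat1 were within 0.25 log2 in mThy14.

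Squamous and cornified genes had medians of -0.36 and -0.14 over 20 tested members. Of these, 6 were at least 2-fold lower and 2 higher in mThy14, 1 lower and 0 higher in mThy16, and 0 changed 2-fold in both. Over all genes, 14.6% were at least 2-fold lower and 7.8% higher in mThy14, and 5.66% and 5.39% in mThy16. The crosslinking enzyme Tgm1 was 6399 and 898 normalized counts in early and late mThy14 and 2118 and 1905 in early and late mThy16. The keratin Krt6a was 536 (early) and 849 (late) normalized counts in mThy14 and 2732 and 2817 in mThy16, so members moved both ways in mThy14. Of 16 secretory and defence genes tested, 7 were at least 2-fold higher and 2 lower in mThy14, beside 7.8% and 14.6% of all genes. In mThy16, 2 were higher and 0 lower, beside 5.39% and 5.66% of all genes. The medians of this list were 0.78 and -0.045. Clu, a secreted chaperone, was 5316 normalized counts at early and 12163 at late passage in mThy14, and 62331 and 57847 in mThy16. The antimicrobial protein lactoferrin (Ltf) was 33.7 and 405 normalized counts in early and late mThy14 and 52989 and 55098 in early and late mThy16. The higher value in late mThy14 was still low, and the level in mThy16 was far higher at both passages. Ceruloplasmin (Cp) was 13789.6 (early) and 7072 (late) normalized counts in mThy14 and 39374 and 47942 in mThy16. Complement C3 was 807 normalized counts at early and 225 at late passage in mThy14, and 16192 and 17629.8 in mThy16. Both were lower in late mThy14 and slightly higher in late mThy16. Muc20, at least 2-fold higher in both lines, was at most at 37.5 normalized counts.

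Of 18 tested genes of simple epithelium and cell junctions, 4 (22.2%) were constant in both lines. This share was 17.4% over all genes and 34.5% over genes with a mean of 1000 or more. In mThy14, 1 of the 18 was at least 2-fold higher and 2 lower, beside 7.8% and 14.6% of all genes. In mThy16, 0 of the 18 differed 2-fold. Epcam was 11057 and 8764 normalized counts in early and late mThy14 and 5497 and 5569 in early and late mThy16. The catenin Ctnna1 was 8298 (early) and 12199.6 (late) normalized counts in mThy14 and 15874 and 15999.9 in mThy16. The keratin Krt8 was 3605 normalized counts at early and 4694 at late passage in mThy14, and 16824 and 17272 in mThy16, nearly level in mThy16. The junction protein Jup was 5708 and 6451 normalized counts in early and late mThy14 and 6155 and 5206 in early and late mThy16.

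The medium components act on pathways that were read as lists of pathway members and targets. Among 31 tested genes of cAMP and immediate early response, the pathway that forskolin drives, 2 were at least 2-fold lower in both lines. These were Adcy3 and the stress factor Atf3, beside 1.75% of all genes lower in both. Atf3 was 166 (early) and 63.5 (late) normalized counts in mThy14 and 272 and 134 in mThy16, with a log2 difference of -1.19 ± 0.42 (SE, 2 lines, adjusted p = 0.792). The immediate early factor Egr1 was 16974 normalized counts at early and 8943 at late passage in mThy14, and 4280.0 and 3066 in mThy16, lower in both lines but under 2-fold. Of the AP-1 factors, Jund was 7491 and 4938 normalized counts in early and late mThy14 and 6289 and 5304 in early and late mThy16. Junb was 3081 (early) and 2261 (late) normalized counts in mThy14 and 2992 and 2939 in mThy16. Fos was 2582 normalized counts at early and 2063 at late passage in mThy14, and 3235 and 3133 in mThy16. All 3 were lower at late passage in both lines, by less than 2-fold. The list medians were -0.10 and -0.066, and 16 of 31 genes were lower in mThy14 and 21 in mThy16.

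Among 20 tested Wnt targets and R-spondin receptors, 2 were at least 2-fold higher and 4 lower in mThy14, and 0 higher and 1 lower in mThy16, close to the shares of all genes (7.8% and 14.6%, and 5.39% and 5.66%). Porcn, which acylates Wnt proteins, was 2024 and 9219.7 normalized counts in early and late mThy14 and 18728 and 12514 in early and late mThy16, a change in opposite directions. The cyclin Ccnd1 was 1373 (early) and 2059.8 (late) normalized counts in mThy14 and 10771 and 12018 in mThy16. The R-spondin receptor Lgr4 was 2562 normalized counts at early and 2073 at late passage in mThy14, and 1400.3 and 1381 in mThy16. The factor Lef1 was at least 2-fold lower in both lines but at most at 1.41 normalized counts in mThy14.

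Genes of EGF and FGF signalling, which include ligands and receptors besides targets, had medians of -0.037 and 0.029 over 24 tested genes. Of these, 0 were at least 2-fold changed in both lines, beside 0.669% of all genes higher and 1.75% lower in both. In mThy14, 0 were at least 2-fold higher and 4 lower, and in mThy16, 2 were higher and 0 lower. Errfi1, a feedback inhibitor of the EGF receptor, was 3207 and 4285 normalized counts in early and late mThy14 and 5788 and 6006 in early and late mThy16. Of 27 tested genes of TGF-beta and BMP signalling, 8 were at least 2-fold higher and 6 lower in mThy14, and 0 higher and 1 lower (Grem1) in mThy16. Over all genes, 7.8% were at least 2-fold higher and 14.6% lower in mThy14, and 5.39% and 5.66% in mThy16. The secreted protein Tgfbi was 48676 (early) and 11218 (late) normalized counts in mThy14 and 5633 and 5279.6 in mThy16, lower in late mThy14 alone. Ccn2 was 59121 normalized counts at early and 71828 at late passage in mThy14, and 29426 and 25691 in mThy16. Of 15 tested Notch genes, 2 were at least 2-fold higher and 2 lower in mThy14, and 1 higher and 0 lower in mThy16. In both lines 0 were 2-fold changed, beside 0.669% of all genes higher and 1.75% lower in both. The target Hes1 was 4322 and 4782 normalized counts in early and late mThy14 and 3349 and 2573 in early and late mThy16.

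Interferon response genes had the highest median in mThy16 of the 28 lists of pathways and cell states. Their medians were 0.11 in mThy14 and 0.26 in mThy16 over 31 tested genes, 18 of which were higher in mThy14 and 23 in mThy16. In mThy14, 6 were at least 2-fold higher and 3 lower, beside 7.8% and 14.6% of all genes. In mThy16, 6 were higher and 0 lower, beside 5.39% and 5.66% of all genes. Usp18 alone was at least 2-fold higher in both lines, at no more than 29.1 normalized counts. Over all genes, 0.669% were at least 2-fold higher in both. The class I chain B2m was 1667 (early) and 1187 (late) normalized counts in mThy14 and 1837 and 2199.9 in mThy16.

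Genes of mesenchymal transition had a median of -1.06 in mThy14 and 0.039 in mThy16 over 13 tested, and the median in mThy14 was -0.69 under quantile normalization. In mThy14, 8 were at least 2-fold lower and 1 higher, beside 14.6% and 7.8% of all genes, and 6 of the 8 stayed under 75 normalized counts in all 4 libraries. In mThy16, 0 were 2-fold lower and 2 higher, Zeb1 and Zeb2, both of them among the lower genes in mThy14. Fibronectin (Fn1), the member of highest mean, was 5536 normalized counts at early and 7189 at late passage in mThy14, and 4422 and 4865 in mThy16. The matrix protein Sparc was 6960.1 and 6879.9 normalized counts in early and late mThy14 and 3152 and 2235 in early and late mThy16. Tenascin (Tnc) was 1157 (early) and 60.4 (late) normalized counts in mThy14 and 767 and 664 in mThy16, with late mThy14 far below the other 3 libraries. Basement membrane genes and integrins had medians of -0.40 and 0.015 over 24 tested, and the first was -0.14 under quantile normalization. Itgb1, the beta subunit shared by many integrins, was 13087 normalized counts at early and 13199 at late passage in mThy14, and 11471 and 13035 in mThy16. Its partner Itga3 was 14374 and 4404 normalized counts in early and late mThy14 and 8178 and 8084 in early and late mThy16, lower in late mThy14 alone. Laminin Lama1 was at least 2-fold lower in both lines, with 37.6 normalized counts as its highest value.

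Imprinted genes had medians of -0.84 and -0.047 over 16 tested, with 6 at least 2-fold lower in mThy14 and 2 in mThy16. Over all genes these shares were 14.6% and 5.66%. The G protein gene Gnas was 36195 (early) and 32132 (late) normalized counts in mThy14 and 28334 and 25619 in mThy16. Mest was 7725 normalized counts at early and 4309 at late passage in mThy14, and 1485 and 1486 in mThy16. Glycolysis and hypoxia genes had medians of -0.27 and 0.025 over 25 tested, and 0 were 2-fold changed in both lines. Over all genes, 0.669% were at least 2-fold higher and 1.75% lower in both. Vegfa, the vascular growth factor, was 16573 and 8444 normalized counts in early and late mThy14 and 6024 and 4742 in early and late mThy16. Oxidative stress genes had medians of 0.062 and -0.016, with 7 of 25 constant in both lines (28.0%). This share was 17.4% over all genes and 34.5% over genes with a mean of 1000 or more. Nqo1 was the 1 member at least 2-fold higher in both lines, at no more than 15.7 normalized counts. The peroxidase Prdx1 was 13861 (early) and 11848 (late) normalized counts in mThy14 and 13112 and 14351 in mThy16.

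**Figure D5:**
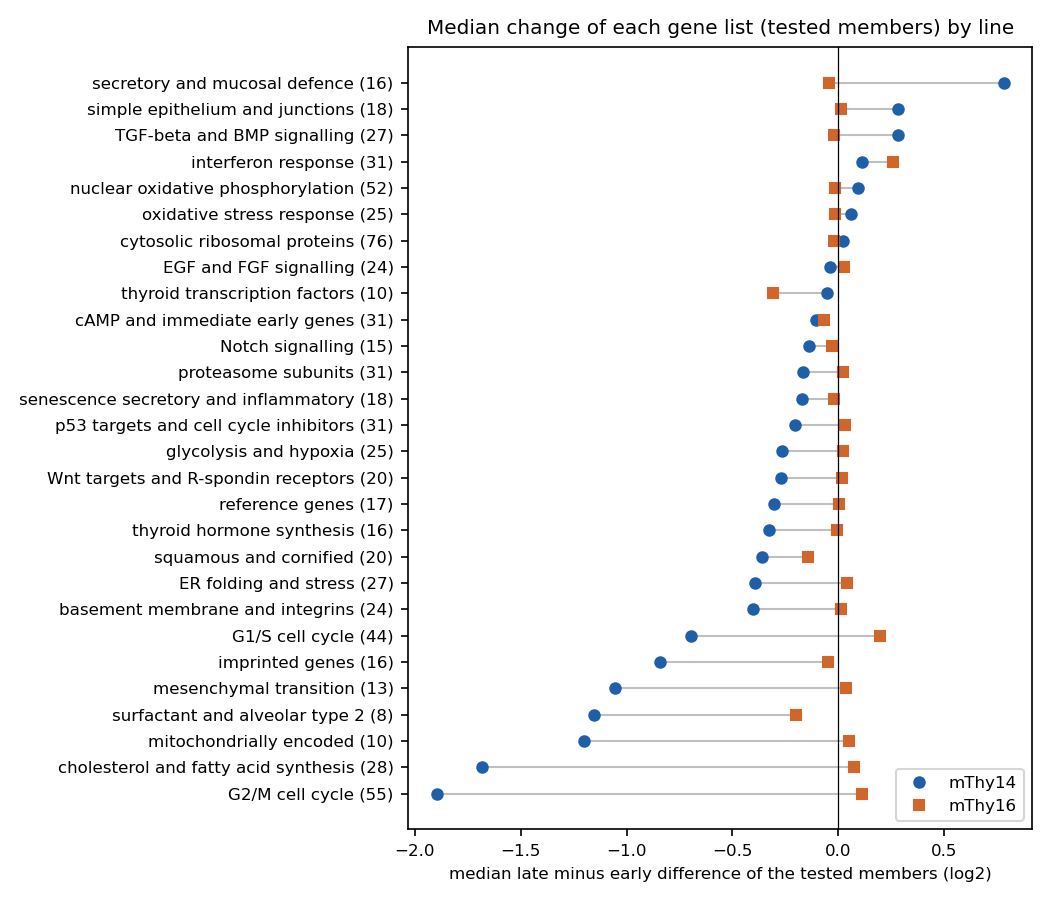
Median late minus early difference on the log2 scale of the tested members of 28 gene lists, with mThy14 as blue circles and mThy16 as orange squares, and the number of tested members in parentheses. The orange squares lie between -0.31 (thyroid transcription factors) and 0.26 (interferon response), while the blue circles reach from -1.90 (G2/M cell cycle) to 0.78 (secretory and mucosal defence).

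Single genes with the largest differences at a mean of 1000 or more were picked after their values were seen, 12 higher and 12 lower in late mThy14. All 24 differed by less than 0.6 log2 in mThy16. The matrix glycoprotein Fbln2 was 15.5 normalized counts at early and 4385 at late passage in mThy14, and 215 and 321 in mThy16. The mannosidase Man2a1 was 1999 and 13455 normalized counts in early and late mThy14 and 4029 and 4009 in early and late mThy16. The water channel Aqp1 was 483 (early) and 3105 (late) normalized counts in mThy14 and 981 and 732 in mThy16. The glutathione transferases Gstm1, Gstm4 and Gstm5 were higher together in late mThy14, with differences of 2.60 for Gstm1, 3.11 for Gstm4 and 2.67 for Gstm5, against -0.45, -0.34 and -0.42 in mThy16. They are similar in sequence, so reads could be shared among them.

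In the other direction, Ptprn, a protein of dense-core secretory granules, was 191098 normalized counts at early and 21012 at late passage in mThy14, and 6982 and 7089 in mThy16. Its relative Ptprn2 was 5643 and 626 normalized counts in early and late mThy14 and 186 and 263 in early and late mThy16. Lbp, which binds bacterial lipopolysaccharide, was 1306 (early) and 76 (late) normalized counts in mThy14 and 1407 and 1329 in mThy16. Glutamine synthetase (Glul) was 1691 normalized counts at early and 206 at late passage in mThy14, and 1217 and 1217 in mThy16. All 4 were at least 8-fold lower in late than in early mThy14 and differed by at most 0.49 log2 in mThy16. In mThy16 the largest difference at this level was in the nuclear noncoding RNA Malat1, with 4635 and 1037 normalized counts in early and late mThy14 and 2119 and 4658 in early and late mThy16, which is opposite to that in mThy14. The factor Klf15 was 2609 (early) and 2051 (late) normalized counts in mThy14 and 1285 and 2460.4 in mThy16. The pyridoxal kinase Pdxk was 770.2 normalized counts at early and 1641 at late passage in mThy14, and 737 and 1233 in mThy16, higher in both lines but under 2-fold in mThy16.

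The 10 genes with the largest opposite changes had at least 50 normalized counts in the higher library of each line. Eif4e3, a cap-binding protein, was 268 and 22.9 normalized counts in early and late mThy14 and 4.95 and 64.8 in early and late mThy16. Early mThy14 and late mThy16 were the higher libraries. Qpct, which forms pyroglutamate ends on peptides, was 125 (early) and 14.6 (late) normalized counts in mThy14 and 11.9 and 97.3 in mThy16. The melanocyte factor Mitf was 68.9 normalized counts at early and 3.12 at late passage in mThy14, and 26.7 and 88.3 in mThy16. Scgb1c1, Ripk3, Maob and Pltp were also lower in late mThy14 and higher in late mThy16, and Tmem106a, Galnt18 and Ccdc68 the reverse. For Galnt18, a glycosyltransferase, the values were 54.8 and 177 normalized counts in early and late mThy14 and 111 and 34.7 in early and late mThy16.

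Several defining markers of other cell types of the thyroid and its surroundings were at or near 0. The summed normalized counts of 20 fibroblast and mural genes were 3286 and 2385 in early and late mThy14 and 2599 and 2403 in mThy16. Those of 16 endothelial genes were 2745 and 1371, and 1740 and 1799, of which Sox17, also expressed outside endothelium, held 1862 in early mThy14. Those of 21 leukocyte genes were 439 and 346, and 1298 and 1458, of which Cd14 held 899 and 978 in mThy16. Among defining markers, parathyroid hormone (Pth) and lumican (Lum) were at 0 in all 4 libraries, the C cell gene Calca was at most 9.37, the T cell genes Cd3e and Cd3d at most 8.43, and the endothelial gene Emcn at most 8.94. Other markers stood higher, such as the endothelial gene Tek with 45.8 in late mThy14.

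Of 14 C cell genes, Scg5 held most of the sum, with 28611 (early) and 34605 (late) normalized counts in mThy14 and 8459 and 7691 in mThy16. Parathyroid genes summed to 3255 and 5845, and 1860 and 1719. Skeletal muscle genes summed to 3791 and 3417, and 4742 and 4323, adipocyte genes to 274 and 234, and 132 and 129. Genes of motile cilia summed to 878 and 802 in mThy14 and 6988 and 6965 in mThy16, where Foxj1 alone held 6122 and 6016, and the dynein Dnah5, at least 2-fold lower in both lines, was 298 normalized counts at early and 55.2 at late passage in mThy14, and 106 and 48.1 in mThy16. At low levels, Dcn, Chgb, Tnni2, Adipoq and Ucp1, each under 50 normalized counts in early mThy14, were also at least 2-fold lower in both lines. Over all genes 1.75% were lower in both, and of the 2400 genes with a mean under 30, 172 were. Ucp1 was 33.7 (early) and 4.16 (late) normalized counts in mThy14 and 18.8 and 4.47 in mThy16. In none of these lists of other cells was a gene at least 2-fold higher in both lines, beside 0.669% of all genes. The endothelial and fibroblast sums were lower in late mThy14 along with the cell division and cholesterol genes, and their part in those differences was not tested. In bulk libraries, fewer cells of a type and less RNA per cell cannot be told apart.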

How the data were processed

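RNA of TFCOs of lines mThy14 and mThy16 at early and late passage (4 of 8 libraries) was analysed. Normalized counts of 16119 genes were deposited in a single table. Per the study's methods, reads were mapped to the mouse genome and normalized with DESeq2, and the submitters' processing notes name BWA 0.6.2-r126, hg38 and mm10 without saying which served these libraries. The methods describe a stranded polyA kit and the labels an adapted CEL-Seq protocol. In every library the deposited signal values (normalized counts) were whole multiples of 1 step (tolerance 0.001 of a step), from which reads were inferred. Inferred reads entered no test of passage. The depth, the counting SE and the chi-square comparison of libraries rest on them, with no independent check, and in early mThy16 the step (0.9903) lay close to 1. The p-values rest on differences between the lines, with the variance of each gene drawn by limma toward the trend over all genes. An SE is therefore not the spread of that gene's own differences in the lines. For Entpd8 these differences were -1.88 in mThy14 and -1.94 in mThy16, beside an SE of 0.74.

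Late was compared with early passage on log2(value + 1), paired by line, with limma 3.58.1 in R 4.3.3 (two-sided, mean-variance trend, Benjamini-Hochberg), over genes that reached 10 normalized counts in 2 or more of the 4 libraries. The pseudocount understates changes of weakly expressed genes. The line names pair the libraries because each line comes from 1 mouse (Pearson r of 0.545 across genes between the early and the late difference of the lines). The fit was also run on simulated data, in which the changed genes differed alike in both lines. The real lines differed in their changes, so the simulation cannot show how the fit performs on these data. A total of 15882 symbols matched GENCODE M21 and 237 did not.

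Named genes were the 15 highest and 15 lowest shared changes (50 or more in both libraries of the higher passage), list members with a shared 2-fold change or among the 4 highest means, the 10 most constant genes of mean 1000 or more and the 10 largest opposite changes. Others are said to be chosen after their values were seen. The comparison and the 36 gene lists were chosen with earlier results of these data known. Count models were not run. Values of some single genes that the naming rule would select are not reported here.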

Additional observations from a re-analysis of the deposited data

Results flagged for a closer look

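Results are given here where the lines differed in opposite directions between early and late passage. With 1 library per line and passage, the difference between the lines was not tested in any of them. Each value is the late minus early log2 difference in mThy14 less that in mThy16.

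For 4 gene lists the medians of the lines had opposite signs, with at least 0.5 in one line and 0.1 in the other. The value was -2.01 for G2/M genes (-1.90 in mThy14 and 0.11 in mThy16), -0.89 for G1/S genes (-0.69 and 0.20), -1.21 for endothelial genes (-0.86 and 0.34) and -1.20 for leukocyte genes (-0.98 and 0.21). Under quantile normalization the mThy14 medians of the endothelial and leukocyte genes were -0.32 and -0.497, under the limit of 0.5, beside 0.42 and 0.22 in mThy16. Most tested endothelial and leukocyte genes were under 100 normalized counts.

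For the 10 single genes with the largest opposite changes, the value was lowest for Eif4e3 at -6.96. It was -5.95 for Qpct, -5.77 for Mitf, -5.40 for Scgb1c1, -5.14 for Ripk3, -3.61 for Maob and -3.40 for Pltp. In the other direction it was 4.58 for Tmem106a, 3.85 for Ccdc68 and 3.32 for Galnt18.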

How the results depend on the processing

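The count of genes with an adjusted p under 0.05 was 0 in limma under every alternative run except no filter, where it was 93. Leaving out 1 library at a time, without the pairing, set 1 library against 2, with the spread taken from the 2 different lines of the other passage and the lone library assumed to vary alike. Its count of 0 in each case says nothing about stability. These fits held between 49 (without early mThy14) and 555 (without late mThy16) genes at an unadjusted p under 0.05, in place of 815. It was 50 without late mThy14 and 302 without early mThy16. Without the replicate block for line, 80 genes had an unadjusted p under 0.05. With all 8 libraries and the block it was 178, without the mean-variance trend 539 and with a filter at 50 normalized counts 487. No other call changed with the block.

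Genes at least 2-fold higher in both lines, lower in both and changed in opposite directions numbered 43, 147 and 195 with a pseudocount of 5, 263, 462 and 746 with no filter, and 10, 34 and 42 with a filter at 50. Quantile normalization gave 156 higher and 155 lower in both. At a mean of 1000 or more, an alternative added after the data were seen, the counts were 0, 0 and 1, with 1028 constant genes and an r of 0.098. The other alternatives left r between 0.0069 and 0.040.

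Of 144 list medians under quantile normalization or scaling to the same total, 133 moved by less than the spread between lines. The other 11 were in mThy14 under quantile normalization: 0.14 for thyroid transcription factors, -0.018 for p53 targets, 0.36 for senescence genes, -0.013 for Wnt targets, 0.020 for Notch, 0.33 for interferon, 0.079 for ribosomal proteins, -0.077 for fibroblast, 0.39 for C cell, -0.53 for adipocyte and 0.023 for cilia genes. Of the 133, those in mThy14 under quantile normalization that differed by over 1.5 times and reached 0.1 were -0.12 for hormone synthesis, 0.49 for TGF-beta and BMP, -0.69 for mesenchymal, -0.14 for basement membrane, -0.17 for reference, -0.32 for endothelial, -0.497 for leukocyte, 0.56 for parathyroid and -0.37 for skeletal muscle genes. The cause was not tested. Differences close to 0 changed sign for Abhd4 (-0.0029), Ap1s1 (-0.0006) and Cops5 (-0.0026) with the same total and for Maob (-0.023) with a pseudocount of 5. Planned count models (edgeR, DESeq2) were not run on these normalized values. Under a mean of 30 normalized counts the median SE from counting was 0.60 and 0.58, beside SDs across genes of 1.497 and 1.428.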

Other observations

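Well-measured genes whose differences had the same sign in both lines were looked at after the data were seen, by taking the 8 higher and the 8 lower genes with the largest shared difference among the 2978 with a mean of 1000 or more. In mThy16 all 16 were under 2-fold. The shared direction of the 16 is fixed by how they were picked, which also favours separation of the late from the early libraries. Their limma values are given as description only. On the higher side stood Pdxk and Fbln2, named above, the giant scaffold protein Ahnak, the RNA-binding protein Fmr1, the RhoA exchange factor Arhgef12, Ralgapa1, Thoc2 and Tmem33. Ahnak was 2163 and 5793 normalized counts in early and late mThy14 and 6033 and 8587 in early and late mThy16. Arhgef12 was 1425 (early) and 2452 (late) normalized counts in mThy14 and 1615 and 2317 in mThy16. For Arhgef12 both late libraries exceeded both early ones, with a log2 difference of 0.65 ± 0.23 (SE, 2 lines, adjusted p = 0.792) in limma, whereas early mThy16 exceeded late mThy14 for Ahnak.

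On the lower side stood, among others, Sftpb, given above, the metallothionein Mt3, the potassium channel Kcnh3, the phosphatase Dusp2, the sulfotransferase Chst1, the adaptor Bcar1 and LRATD1. Mt3 was 3271 normalized counts at early and 949 at late passage in mThy14, and 499 and 334 in mThy16. Chst1 was 2891 and 1042 normalized counts in early and late mThy14 and 2049.9 and 1439.8 in early and late mThy16, with both late libraries below both early ones and a log2 difference of -0.99 ± 0.26 (SE, 2 lines, adjusted p = 0.792). Bcar1 was 3362 (early) and 1944 (late) normalized counts in mThy14 and 1423 and 1018 in mThy16, where late mThy14 exceeded early mThy16.

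Of the 32 genes at least 2-fold lower in both lines with 50 or more normalized counts at early passage, 17 lay outside the 15 named in the text. Impdh1, an enzyme of guanine nucleotide synthesis, was the most abundant of them by normalized counts, with 690.1 normalized counts at early and 345 at late passage in mThy14, and 509 and 247 in mThy16. Both late libraries were below both early ones, with a difference close to 2-fold in each line, and limma gave -1.02 ± 0.30 (SE, 2 lines, adjusted p = 0.792). The shared direction and a difference of at least 2-fold in each line are fixed by how the 32 genes were picked. That choice also favours separation of the late from the early libraries. The lysosomal sulfatase Arsa was 167 and 77 normalized counts in early and late mThy14 and 101 and 48.1 in early and late mThy16. The kinase Fes was 84.3 (early) and 16.7 (late) normalized counts in mThy14 and 177 and 78.3 in mThy16.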
